A study of Mus musculus with 4 samples.

Results

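The Lgr receptors and R-spondins form a small signalling group, and 10 of its genes were followed here among the 19296 genes measured in mouse ureter. The group holds the receptors Lgr4, Lgr5 and Lgr6, the ligands Rspo1, Rspo2, Rspo3 and Rspo4, the ubiquitin ligases Znrf3 and Rnf43, and Axin2, a gene switched on by beta-catenin. Genes were chosen by name from this pathway. Where a gene had several probe sets, the one with the highest mean over the 4 arrays was selected on its measured values, but each of the 10 had 1 probe set, so no measured value decided which was used. The group was put together after the difference of Lgr5 between the genotypes was known. The values of Lgr5 are therefore a description and support nothing beyond themselves. The other members and the further gene lists were also chosen with earlier results of these data known. Their calls, that of Lgr6 included, are descriptions too and not tests independent of that choice.

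Ureters came from 4 male mice on a 129Sv/C57BL6 mix background, and each mouse had 1 array. The 2 wild type mice (miR-143/145+/+) were 4.5 months old and their kidneys were normal. The 2 knockout mice (miR-143/145-/-) lacked the genes of the microRNAs miR-143 and miR-145, were 2.5 months old and had hydronephrosis, which is distension of the kidney by retained urine. Genotype, age and kidney state cannot be told apart in this design.

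R-spondins are secreted proteins that bind Lgr4, Lgr5 and Lgr6 at the cell surface. The bound complex captures Znrf3 or Rnf43, membrane ligases that otherwise remove Frizzled receptors, so that a cell responds more strongly to Wnt ligands. In the developing ureter, Wnt ligands of the epithelium act through beta-catenin on the surrounding mesenchyme, which forms the smooth muscle coat, and Axin2 is widely used as a readout of that signal. Lgr5 is best known as a marker of intestinal stem cells and is itself a target of Wnt signalling there.

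All values are log2 expression values as deposited. The median of the arrays lay between 7.81 and 7.89, and 13515 to 14231 genes per array were above a background level of 6.58, taken from olfactory receptor genes. The deleted microRNA genes were low in knockout ureter: Mir145a measured 8.28 and 8.42 in wild type mice against 4.60 and 5.02 in knockout mice, and Mir143 measured 7.64 and 7.85 against 6.48 and 6.53. Smooth muscle and urothelial markers were bright on every array, with list means of 11.11 to 11.51 and 11.55 to 12.43, as were adipocyte markers at 11.93 to 12.76. Of all genes, 459 (2.38%) passed an adjusted p of 0.05 between the genotypes (limma, Benjamini-Hochberg over all genes). Of these, 367 rose in knockout ureter (1.90% of all genes) and 92 fell (0.477%), or 245 and 148 after median centring of the arrays. Both knockout values lay above both wild type values for 28.0% of genes and below them for 32.0%.

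The promoter sequences of Lgr6, a receptor whose expression was higher in knockout, and of Axin2, the beta-catenin target whose values were lower there, are shown to set the start regions of these genes side by side. Each window runs from 250 bases before to 50 bases after a transcription start site of RefSeq, build GRCm38.p6, and is written 5′ to 3′ along the gene. That of Lgr6 lies at chr1:135105227-135105526 on the minus strand and that of Axin2 at chr11:108920099-108920398 on the plus strand. Capitals mark the letters GGGCGG on either strand, a GC box of the kind that Sp factors bind.
Lgr6: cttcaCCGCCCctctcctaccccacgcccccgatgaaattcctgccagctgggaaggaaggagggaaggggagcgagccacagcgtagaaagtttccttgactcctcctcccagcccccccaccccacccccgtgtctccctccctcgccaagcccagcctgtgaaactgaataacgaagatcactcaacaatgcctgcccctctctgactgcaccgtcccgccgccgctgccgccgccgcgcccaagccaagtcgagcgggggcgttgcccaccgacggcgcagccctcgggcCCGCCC
Axin2: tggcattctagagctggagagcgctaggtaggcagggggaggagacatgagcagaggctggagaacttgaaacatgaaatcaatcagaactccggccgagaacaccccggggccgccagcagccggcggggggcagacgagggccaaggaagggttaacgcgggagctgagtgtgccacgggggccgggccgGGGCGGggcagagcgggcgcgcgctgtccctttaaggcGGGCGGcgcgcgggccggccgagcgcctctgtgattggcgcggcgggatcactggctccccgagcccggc

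The table of promoters held 7 windows for 6 of the genes: Lgr4, Lgr6, Rspo1, Rspo4, Axin2, and Rnf43 with 2. The letters ATCAAAG are the core bound by TCF and LEF factors, the DNA-binding partners of beta-catenin. They were found on neither strand in any of the 7 windows, and 3.73% of 32851 windows of the same length hold them. Only this exact form was searched and only within the 300-base windows, so other forms and sites farther away were not examined. GGGCGG occurred at 2 places each in the windows of Lgr6, Rspo4 and Axin2, against 35.7% of windows with at least 1, and at none in the other 4. TATAAA was in none of the 7 and in 13.6% of all windows. The windows of Lgr6, Rspo1, Rspo4 and Axin2 were 67.7% to 71.0% G and C and that of Lgr4 58.3%, while those of Rnf43 were 46.7% and 44.3%, around a median of 52.7% over all windows. The windows of Lgr6 and Axin2 thus held the same number of matches to each of the 3 motifs.

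Lgr5 and Lgr6 rose in knockout ureter, while Lgr4, the ligands, the ligases and Axin2 did not pass. Of the 10 genes, 2 were called higher and 0 lower by limma over all genes, beside 1.90% and 0.477% of all genes. Without adjustment 4 higher and 2 lower had a limma p under 0.05, beside 12.7% and 13.8% of all genes. Their median log2 difference was 0.056, beside -0.020 over all genes. By position alone, 5 genes had both knockout values above both wild type values, 3 had both below and 2 overlapped. The shares of all genes for these positions are those given above, and the counts over 10 genes are read no further.

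**Figure D1:**
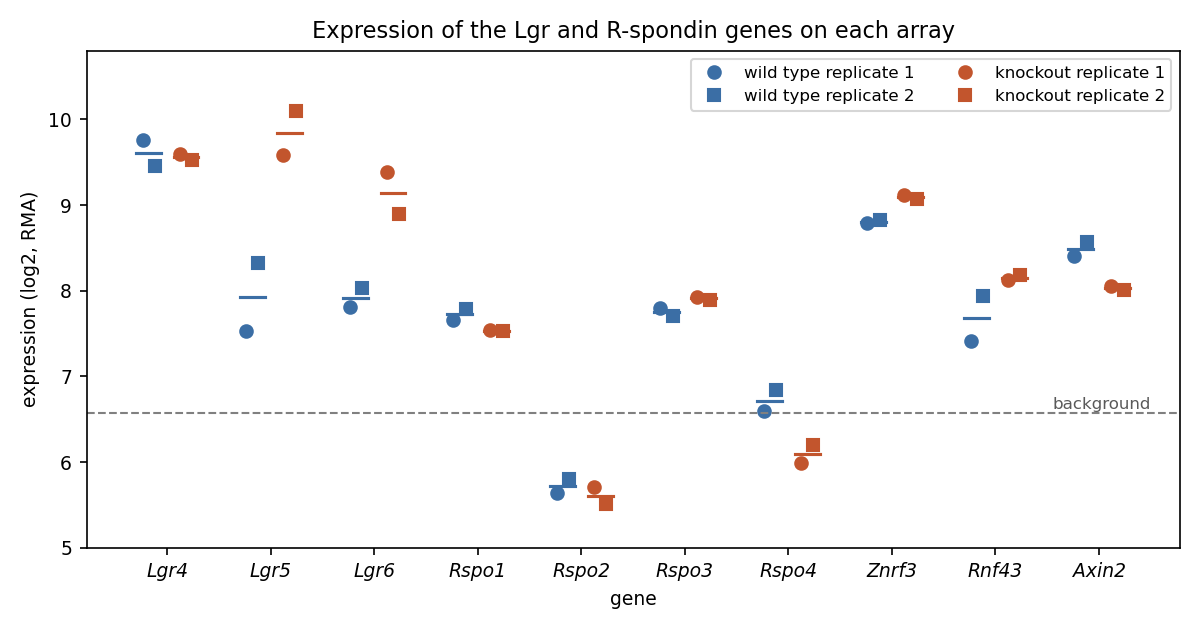
Log2 expression (vertical axis) of the 10 genes (horizontal axis) on each of the 4 arrays, with blue symbols for wild type and orange symbols for knockout mice, circles for replicate 1, squares for replicate 2 and short lines for the means; the dashed line is the background level of 6.58. Both knockout values lie above both wild type values for 5 genes, Lgr5 and Lgr6 among them, and below both for 3. Lgr4 and Rspo2 overlap, and Rspo2 lies below background on every array. Heights of different genes are not comparable, since each has its own probes.

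Lgr5, an R-spondin receptor with a large leucine-rich extracellular part (probe set 10372503), measured 7.53 and 8.33 in the wild type mice and 9.58 and 10.10 in the knockout mice. Both knockout values were higher than both wild type values. The mice of one genotype also stood well apart, by more than for most genes: the pooled within-genotype SD of 0.48 was larger than that of 98.9% of all genes. The means were 7.93 ± 0.57 and 9.84 ± 0.36 (SD, n = 2 each), a 3.77-fold difference and the ninth largest rise among all genes. On the log2 scale it was 1.91 (SE 0.28, 95% interval 1.26 to 2.57; limma adjusted p = 0.0328). In whole ureter, more cells that express a gene and more RNA per cell cannot be told apart.

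Lgr6, the third receptor of the group (probe set 10357965), measured 7.81 and 8.03 in wild type, against 9.39 and 8.89 in knockout. The genotypes did not overlap here either, but the higher knockout value was that of replicate 1, whereas for Lgr5 it was that of replicate 2. The means were 7.92 ± 0.16 and 9.14 ± 0.35 (SD, n = 2 each). The rise was 2.33-fold, or 1.22 on the log2 scale (SE 0.18, 95% interval 0.79 to 1.65; limma adjusted p = 0.0353), rank 72 among all rises. Markers of kidney tubules were high in knockout replicate 1, with a list mean of 8.53 against 6.78 in knockout replicate 2. Without knockout replicate 1 the difference of Lgr6 was smaller, at 0.97, and that of Lgr5 was 2.17. The part of kidney tubule cells in these differences was not tested.

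Both receptor calls depended on having both wild type mice. Without wild type replicate 1 the differences of Lgr5 and Lgr6 were 1.51 and 1.11, both at a limma adjusted p of 0.183. Without wild type replicate 2 they were 2.31 and 1.33, at adjusted p = 0.200 and 0.216. In those fits, where the spread came from the knockout pair alone, limma called 0 of all genes, with 4253 and 3079 at an unadjusted p under 0.05. Under the other alternatives tried, both receptors kept their calls.

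Lgr4, the most widely expressed receptor of the group in mouse tissues (probe set 10474419), measured 9.76 and 9.45 in wild type, against 9.60 and 9.52 in knockout. All 4 values lay close together and the genotypes overlapped. The difference was -0.045 on the log2 scale, with a 95% interval from -0.37 to 0.28 (limma adjusted p = 0.865), an interval that holds no change of the size seen for Lgr5 or Lgr6. The change of Lgr5 exceeded that of Lgr4 by 1.96, and the change of Lgr6 exceeded it by 1.27, with no overlap of the genotypes in either contrast. With 2 mice per genotype an exact permutation test of a single contrast cannot give a two-sided p below 0.333, so these contrasts are descriptions. The change of Lgr5 exceeded that of Lgr6 by 0.69, and there the genotypes overlapped.

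**Figure D2:**
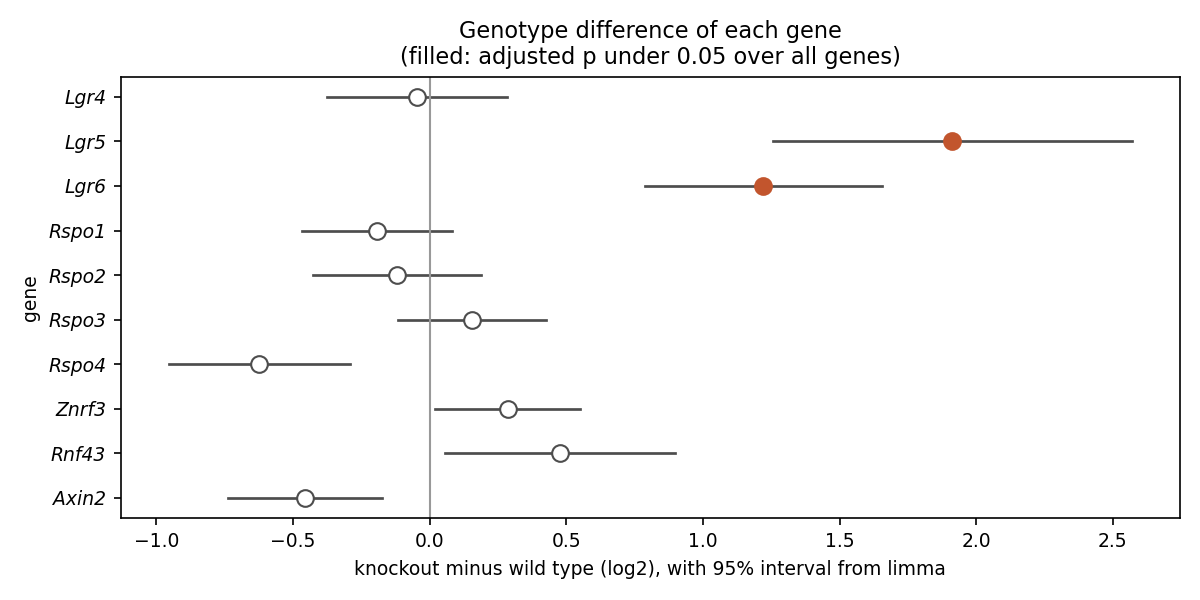
Difference between knockout and wild type on the log2 scale (horizontal axis) for each of the 10 genes (vertical axis), with 95% intervals from limma; filled points passed an adjusted p of 0.05 over all genes. The intervals of Lgr5 (1.26 to 2.57) and Lgr6 (0.79 to 1.65) lie farthest to the right. Those of Znrf3 and Rnf43 lie above 0 and those of Rspo4 and Axin2 below 0, without passing. Those of Lgr4, Rspo1, Rspo2 and Rspo3 cross 0.

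None of the 4 R-spondin ligands was called by limma; without adjustment, 1 of them, Rspo4, had a p under 0.05. Rspo1 (probe set 10508012) measured 7.66 and 7.79 in wild type, against 7.54 and 7.52 in knockout. Both knockout values were slightly lower, and the difference was -0.19 (95% interval -0.47 to 0.083; limma adjusted p = 0.327). Rspo3 (probe set 10368495), a ligand made by stromal and endothelial cells in several organs, measured 7.80 and 7.71 in wild type, against 7.93 and 7.89 in knockout. Its difference was 0.16, with a 95% interval of -0.11 to 0.43 (adjusted p = 0.414), and it was 0.088 with centred arrays and 0.096 with a further quantile normalization. Both ligands were above background on all arrays, and neither interval reaches the size of the change of Lgr6.

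Rspo4 (probe set 10477035), the ligand known for its role in nail growth, was dim. It measured 6.60 and 6.84 in wild type mice, just above background, and 5.99 and 6.20 in knockout mice, below it. Because both knockout values were under the background level, only a bound can be given: Rspo4 was at least 1.10-fold lower in knockout. The measured difference of -0.62 did not pass (limma adjusted p = 0.0647). It passed in 4 of 13 alternatives, among them the fit without knockout replicate 2 (adjusted p = 0.0472) and robust eBayes (0.0479). Rspo2 (probe set 10428388), which acts in limb and lung development, lay below background on every array at 5.64 and 5.80 in wild type, against 5.70 and 5.51 in knockout, so no fold is given.

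The ligases were a little higher in knockout without passing. Znrf3 (probe set 10383982) measured 8.79 and 8.82 in wild type, against 9.12 and 9.07 in knockout. Its replicates lay close together and the genotypes were apart, with a difference of 0.29 (SE 0.11, 95% interval 0.020 to 0.55; limma adjusted p = 0.166), or 0.19 with a further quantile normalization. Rnf43 (probe set 10380116), a close relative of Znrf3, measured 7.42 and 7.94 in wild type, against 8.12 and 8.18 in knockout. The difference was 0.48 (SE 0.18, 95% interval 0.055 to 0.90; adjusted p = 0.151), and the gap between the wild type mice was larger than that between wild type replicate 2 and the knockout mice. Without wild type replicate 1 the difference was 0.22, and without wild type replicate 2 it was 0.73. Both ligases are feedback genes that Wnt signalling induces in intestine.

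Axin2, a scaffold of the complex that degrades beta-catenin (probe set 10382228), stood on the other side. It measured 8.41 and 8.56 in wild type, against 8.05 and 8.01 in knockout. Both knockout values were lower. The difference was -0.46 (SE 0.12, 95% interval -0.74 to -0.17), and it did not pass (limma adjusted p = 0.0812). The difference stayed between -0.55 and -0.38 under every alternative run, and passed in 1, an adjusted p threshold of 0.10. The change of Lgr5 exceeded that of Axin2 by 2.37 and the change of Lgr6 exceeded it by 1.68, with no overlap of the genotypes in either contrast. Lgr5 was chosen with its rise known, so these contrasts, like those with Lgr4, are descriptions.

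Further genes of beta-catenin signalling were read from the same fit. Among 20 measured of 22 listed target and feedback genes other than the 10 above, 4 rose, 0 fell and 16 did not pass. Over all genes, 1.90% were called higher and 0.477% lower. The median was 0.47, beside -0.020 over all genes and 0.031 over genes above background. Without adjustment 12 higher and 2 lower had a limma p under 0.05, beside 12.7% and 13.8% of all genes. This list was chosen with earlier results of these data known, so its counts and median are a description. Dkk3, a divergent member of the Dickkopf family, rose from 8.18 and 8.39 to 9.40 and 9.75 (log2 difference 1.29, limma adjusted p = 0.0234). Dkk2, a secreted protein that binds the Wnt co-receptors Lrp5 and Lrp6, rose from 8.13 and 8.55 to 9.34 and 10.01 (1.34, adjusted p = 0.0454). Tnfrsf19, also called Troy, a membrane protein found with Lgr5 in intestinal stem cells, rose from 8.43 and 8.63 to 9.27 and 9.43 (0.81, adjusted p = 0.0388). Nkd2, an inhibitor that binds Dishevelled, rose from 8.55 and 8.42 to 9.21 and 9.07 (0.65, adjusted p = 0.0499). All 4 had knockout values above both wild type values. Without knockout replicate 1, 9 of the list were called, all higher, in a fit that called 5.78% of all genes higher and 3.26% lower. With a further quantile normalization the calls of Tnfrsf19, Dkk2 and Nkd2 were lost (adjusted p 0.0628 to 0.0701). Nkd2 also missed the threshold when array weights were used (0.0515), when arrays were centred (0.0533) and when knockout replicate 1 was dropped (0.0536).

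The 4 genes that rose include secreted and intracellular inhibitors of the pathway, namely Dkk2 and Nkd2, and Dkk3 has no settled role in it. Of the 16 that did not pass, Ephb3 differed by 0.64 (limma adjusted p = 0.0550), Cd44 by 0.70 (0.0566), Ccnd1 by 0.71 (0.0614), Notum by 0.55 (0.105), Nkd1 by 0.36 (0.127), Myc by 0.45 (0.223), Lef1 by 0.16 (0.511) and Sp5 by -0.21 (0.278). These 8 were named after their values were seen. With robust eBayes 7 of the list were called, in a fit that called 902 of all 19296 genes. Sp5 lay, like Axin2, lower in both knockout mice, at 6.82 and 6.81 against 7.00 and 7.04. So did Sox9 (-0.27, limma adjusted p = 0.179), Dkk1 (-0.16, 0.423) and Dkk4, which was below background on every array. These were also named after their values were seen. In this list 4 genes lay lower in both knockout mice and 14 higher in both, beside 32.0% and 28.0% of all genes.

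Of 31 genes for Wnt receptors, the destruction complex and mediators of beta-catenin, 30 did not pass and 1 rose. Calls among all genes were 1.90% higher and 0.477% lower. The median was 0.079, beside -0.020 over all genes and 0.031 over genes above background. Fzd1, a Frizzled receptor, rose from 9.48 and 9.67 to 10.18 and 10.34 (0.69, limma adjusted p = 0.0499), and it lost its call without knockout replicate 2 (adjusted p = 0.0838), with array weights (0.0515), with centred arrays (0.0517) and with a further quantile normalization (0.0729). Fzd7 differed by 0.51 (adjusted p = 0.0739), and Pygo1, a nuclear cofactor of beta-catenin, by -0.43 (adjusted p = 0.0834). Ctnnb1, which encodes beta-catenin, differed by 0.22 (0.275), and the co-receptor Lrp6 by 0.077 (0.713); these were named after their values were seen. Without adjustment 6 higher and 3 lower had a limma p under 0.05, beside 12.7% and 13.8% of all genes. The fit without knockout replicate 1, with its larger share of all genes called, called 3 higher and 1 lower.

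Genes reported in intestinal stem cells were mixed. The list also holds Bmi1, Hopx, Tert and Clu, named after their values were seen, so it is not a list of markers of Lgr5 cells alone. Of 19 measured, Tnfrsf19 rose and 18 did not pass, where 1.90% of all genes were called higher and 0.477% lower. The median was 0.11, beside -0.020 over all genes. Without adjustment 5 higher and 4 lower had a limma p under 0.05, beside 12.7% and 13.8% of all genes. Lrig1, an inhibitor of growth factor receptors, measured 9.33 and 9.13 in wild type, against 8.61 and 8.30 in knockout (limma adjusted p = 0.0503), and Cdca7, a gene of dividing cells, 7.87 and 8.10 against 8.59 and 8.86 (adjusted p = 0.0531). These differences had opposite signs, and neither passed. Of 13 alternatives, Lrig1 passed in 8 and Cdca7 in 5, among them the fit of genes above background (0.0442 and 0.0456) and robust eBayes (0.0344 and 0.0371). The fit without knockout replicate 1, which called more of all genes as given above, called 4 genes of this list, 3 higher and 1 lower. Ascl2 and Olfm4, named after their values were seen, are used most often to mark intestinal stem cells with Lgr5. Ascl2 was below background on every array, at 6.24 and 6.52 in wild type, against 6.42 and 6.48 in knockout, and so was Olfm4, at 6.19 and 6.18 against 5.80 and 5.87.

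Among 8 measured relatives of the Lgr receptors and alternative partners of Lgr4, 1 fell and 7 did not pass. Calls among all genes were 1.90% higher and 0.477% lower. Without adjustment 2 of the 8 were higher and 4 lower at a limma p under 0.05, beside 12.7% and 13.8% of all genes. Tnfsf11, the cytokine RANKL and a reported ligand of Lgr4, fell from 8.48 and 8.59 to 7.87 and 7.78, a log2 difference of -0.71 (limma adjusted p = 0.0394). Its call was lost without knockout replicate 2 (adjusted p = 0.0552), and without knockout replicate 1 the list had 1 gene called higher and 2 lower. Tshr, the thyrotropin receptor and a related leucine-rich receptor, measured 10.99 and 10.67 in wild type, against 10.23 and 9.50 in knockout and did not pass (adjusted p = 0.0750). Ndp, or norrin, a ligand of Fzd4 that also binds Lgr4, measured 6.88 and 6.56 against 7.36 and 7.46 (adjusted p = 0.0566). Ndp passed in 5 of 13 alternatives and Tshr in 3. The median of this list was -0.25, beside -0.020 over all genes, and 3 of its 8 genes were below background on every array.

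**Figure D3:**
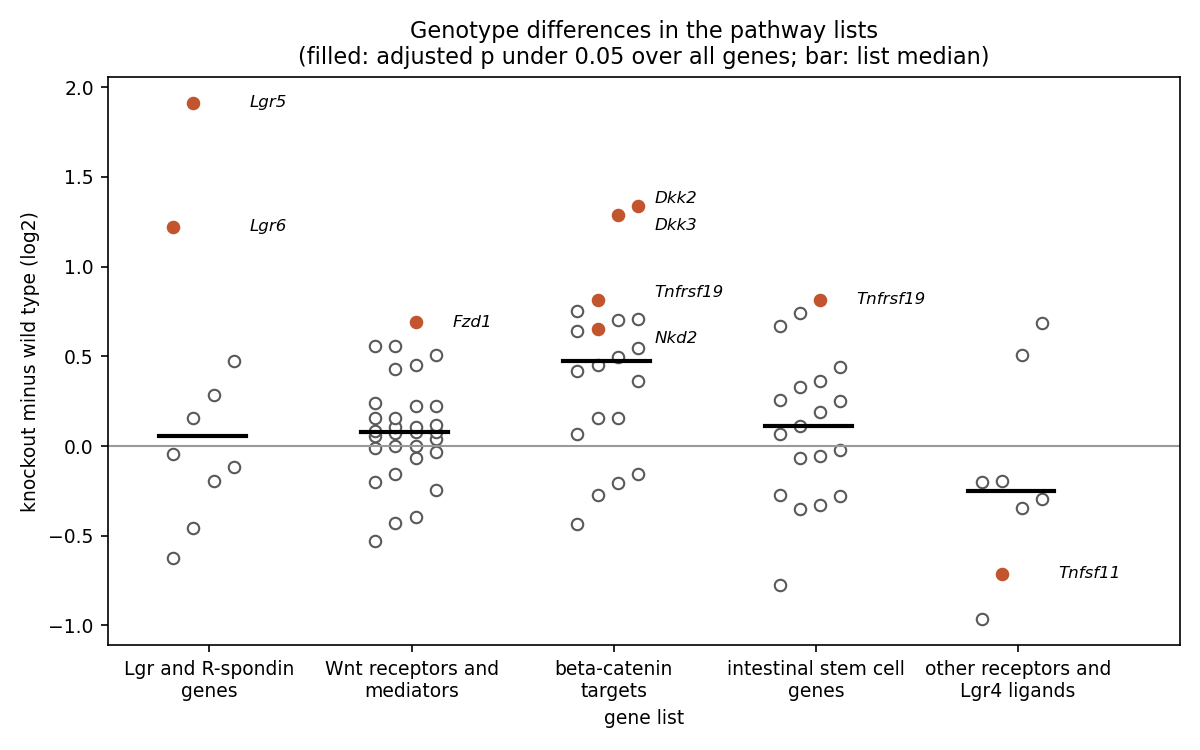
Difference between knockout and wild type on the log2 scale (vertical axis) for the genes of each list (horizontal axis), with 1 point per gene, filled where it passed an adjusted p of 0.05 over all genes, and a bar at the list median. Called genes are named; the beta-catenin targets have a median of 0.47, and the medians of the other lists lie between -0.25 and 0.11.

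The genes whose 4 values were most like those of Lgr5 were found by the distance between values centred on each gene's own mean, over the 4 arrays and the 14226 other genes above background. The 6 nearest were Bmp5, a bone morphogenetic protein (distance 0.15), Adamdec1, a metalloprotease of the ADAM family (0.28), Tnc, the matrix glycoprotein tenascin C (0.38), Sfrp2, a secreted Frizzled-related protein that binds Wnt ligands (0.38), Avpr1a, a vasopressin receptor (0.39), and Hhip, a hedgehog-binding membrane protein (0.45). They were chosen for values like those of Lgr5, so how their values differ between the genotypes follows from that choice and is given as a description. Bmp5 measured 8.41 and 9.32 in wild type, against 10.39 and 10.92 in knockout. Sfrp2 measured 9.62 and 10.33 against 11.32 and 11.72. Lgr6 ranked 115 by this distance (1.08) and Rnf43 ranked 915 (1.49), while Axin2 ranked 13130.

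Markers of fibroblasts and urothelium were higher in knockout ureter, as Lgr5 and Lgr6 were. Over all 19296 genes, 9086 were higher in knockout and 10210 lower, and 1.90% were called higher. Among the 14227 genes above background, 7748 were higher and 6479 lower. The mean of 10 fibroblast markers stood at 10.37 and 10.49 in wild type, against 10.97 and 11.17 in knockout, with 10 of 10 higher and 3 called. The mean of 10 urothelial markers was 11.55 and 11.79 in wild type, against 12.08 and 12.43 in knockout, with 10 of 10 higher and 1 called, and 0 markers of either list were below background. Both means were lowest in wild type replicate 1 and highest in knockout replicate 2, the order that Lgr5 had. That order was also found for 9.91% of all genes, for 12.7% of genes above background and for 12 of the 20 beta-catenin targets. The list differences were 0.64 and 0.58, against 1.91 for Lgr5 and 1.22 for Lgr6, and their part in the rise of the receptors was not tested.

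Smooth muscle markers had means of 11.20 and 11.11 in wild type, against 11.51 and 11.33 in knockout, with 8 of 10 higher and 1 called. Markers of 9 adipocyte genes were lower in all 9 cases, at 12.76 and 12.65 in wild type, against 12.45 and 11.93 in knockout; limma called 0, with 6 at an unadjusted p under 0.05. Kidney tubule markers, 9 of 10 of them higher, had means of 6.59 and 7.30 in wild type, against 8.53 and 6.78 in knockout, and did not follow Lgr5. Lymphocyte markers, 7 of 9 lower and 1 called lower, had means of 6.76 and 6.96 in wild type, against 6.54 and 6.45 in knockout. Of these 9 markers, 3 were below background on every array. Endothelial markers, 8 of 10 lower, had means of 10.29 and 10.44 against 10.27 and 10.08; limma called 0, with 3 at an unadjusted p under 0.05. Skeletal muscle means overlapped, between 7.25 and 7.38. Below background on every array were 4 of 10 skeletal muscle markers and 1 of 10 kidney tubule markers. Over all genes, 0.477% were called lower and 13.8% were lower at an unadjusted limma p under 0.05. Cells that express Lgr5 or Lgr6 were not separated from the rest of the ureter, and which cell type carried the rise was not tested.

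**Figure D4:**
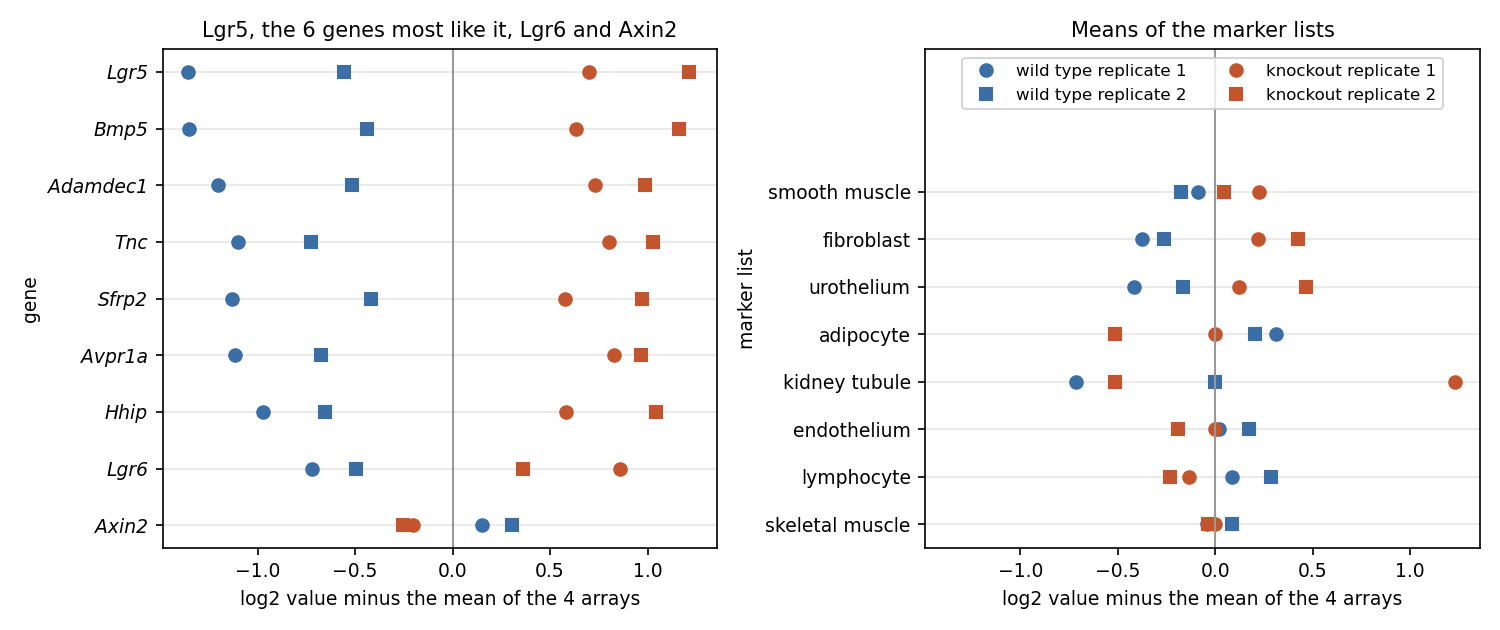
Log2 values minus the mean of the 4 arrays (horizontal axis) for Lgr5, the 6 genes nearest to it, Lgr6 and Axin2 (left) and for the means of the 8 marker lists (right), with blue symbols for wild type and orange symbols for knockout, circles for replicate 1 and squares for replicate 2. Fibroblast and urothelial means separate the genotypes in the direction of Lgr5 by 0.64 and 0.58, adipocyte means run the other way, and kidney tubule means are high in knockout replicate 1.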

How the data were processed

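RNA from whole ureter, 500 ng per mouse, was hybridised to Affymetrix whole-transcript arrays, per the labels' protocols. The authors deposited log2 expression values, for each probe set of each array. The submitters' processing notes list RMA, limma 3.12.1 and R 2.15.0. RMA makes the distributions of arrays alike, which reduces any change that most genes share. The genome build was not given in the sources used here.

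Of 23309 probe sets, 20728 had 1 gene symbol in the platform annotation, 1174 several and 1407 none; only the first were used. For 804 genes with over 1 probe set the brightest was taken, which left 19296 genes. Background was the 95th percentile of the means of 1024 olfactory receptor genes. If both arrays of a genotype were under that level, a bound replaces the fold: the mean of the brighter genotype set against the value or the background level of each dim array, whichever is higher.

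Genotypes were compared across all genes with limma 3.58.1 (lmFit, eBayes) in R 4.3.3, p-values adjusted over all genes by Benjamini-Hochberg and a threshold of 0.05; SE and intervals are moderated. The fit was tested on simulated data. The labels call the mice biological replicates, and 2 per genotype limit the precision. No fit used age or kidney state, which follow genotype. Members and lists were chosen with earlier results of these data known. Named genes are the 10 members, called genes and the 3 of smallest p above background in each pathway list, the 6 genes nearest to Lgr5 and the deleted microRNAs; others are said to be named after their values were seen. The fit was repeated without each mouse, with a threshold of 0.10, array weights, robust eBayes, an intensity trend, the mean of probe sets, median centring, quantile normalization once more, only genes above background, and a replicate block. Promoters are from RefSeq (GRCm38.p6) and matched by symbol.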

Additional observations from a re-analysis of the deposited data

How the results depend on the processing

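The differences of Lgr5 and Lgr6 kept their sign in all 13 alternatives (1.51 to 2.31 and 0.97 to 1.47) and lost their calls in the 2 that left out a wild type mouse. Of the 10 members 4 were called at a threshold of 0.10, and 0 to 3 with a mouse left out. Over all genes, 1922 were called with a replicate block, 215 with a further quantile normalization, 902 with robust eBayes, 2299 at a threshold of 0.10 and 0 to 1744 with a mouse left out. Same-numbered mice did not deviate together (correlation -0.066 over probe sets) and share only a number, and the block called Rspo4 lower as well (adjusted p 0.0237). Rspo2, below background, differed by 0.023 with a further quantile normalization, opposite in sign, and Lgr4 ranged from -0.20 to 0.11 with a mouse left out. The cause of these shifts was not tested.

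The replicate block called 1922 of all 19296 genes. For the lists, it called 10 beta-catenin targets, 5 Wnt receptors and mediators, 4 stem cell genes and 4 relatives and Lgr4 partners. With a further quantile normalization these were 1, 0, 0 and, as before, 1, with 9 receptors and mediators and 7 stem cell genes at an unadjusted limma p under 0.05. Robust eBayes, with 902 of all genes called, called 7 targets, 3 stem cell genes and 2 relatives. At a threshold of 0.10, with 2299 of all genes called, there were 9 targets, 7 receptors and mediators, 3 stem cell genes and 4 relatives. With a mouse left out the ranges were 0 to 9, 0 to 4, 0 to 4 and 0 to 3. Receptors and mediators had 0 limma calls with centred arrays and with array weights, with 10 and 9 at an unadjusted p under 0.05. Stem cell genes had 3 calls among genes above background, and 2 each with centred arrays, with the mean of probe sets and with an intensity trend; relatives had 2 among genes above background.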
